A study of Rattus norvegicus with 5 samples.

Results

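The genes described here are 7 members of the transforming growth factor beta (TGF-beta) pathway, of 15074 genes listed in all 5 tables of the series. They are the ligands Tgfb1 (ENSRNOG00000020652), Tgfb2 (ENSRNOG00000002126) and Tgfb3 (ENSRNOG00000009867), the receptors Tgfbr1 (ENSRNOG00000007036) and Tgfbr2 (ENSRNOG00000013265), and the signal carrier Smad3 (ENSRNOG00000008620) with the inhibitor Smad7 (ENSRNOG00000018359). They were chosen as pathway genes by identifier, without a threshold on their values, and all 7 were read in every library. The question was which cells of the culture carried RNA for the signal and for its receivers, and how this differed with the virus, the day and A83-01.

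All cells were primary ventricular cells of wild type Sprague Dawley rats at postnatal day 2, and per the labels they included myocytes as well as non-myocytes. Every culture received an adenovirus, which carried GFP as the control (Adeno-GFP) or the transcription factor TBX18 (Adeno-TBX18). The 5 groups were GFP at day 3, TBX18 at day 3, GFP at day 14, TBX18 at day 14, and TBX18 with A83-01 at day 14. A83-01, a small molecule that blocks the kinase of TGF-beta type I receptors, was given at 0.2 µM. Its title says day 14 but the treatment field names 3 days, and the time of exposure is therefore uncertain. By its title the series addresses TBX18-driven conversion of ventricular myocytes towards pacemaker cells. How many animals were pooled for a culture is not given in the sources used here.

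With a single library for each group there were no replicates, and differences are given as values without a test or p-value. Values are UMIs, tags that each mark 1 captured RNA molecule, summed over the cells of a set and divided by all UMIs of that set, on the usual CPM scale. Intervals are exact 95% Poisson intervals for levels and exact intervals for ratios, and they cover counting error only, not the spread between cultures. A gene is called past the fold where the ratio reached 1.5-fold and the mean level was at least 5 CPM.

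TGF-beta ligands are secreted as latent dimers that must be released before they bind. An active dimer brings the type II receptor, encoded by Tgfbr2, together with the type I receptor, encoded by Tgfbr1, whose kinase phosphorylates Smad2 and Smad3. Phosphorylated Smads enter the nucleus and regulate target genes, among them Smad7, whose product binds the type I receptor and limits the signal. In the heart the pathway is known for fibroblast activation and matrix production.

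The 250 bases before the start of each gene were read from RefSeq (GRCr8), where all 7 members had an entry. Those of 2 ligands are shown because they were the ligands with enough UMIs to compare. Those of both receptors are shown because their levels varied most alike in the pooled comparison given below. Capitals mark the GC box, GGGCGG or its reverse complement, which Sp1-type factors bind, and all are written 5′ to 3′.

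Tgfb1, chr1:90324062-90324311, plus strand: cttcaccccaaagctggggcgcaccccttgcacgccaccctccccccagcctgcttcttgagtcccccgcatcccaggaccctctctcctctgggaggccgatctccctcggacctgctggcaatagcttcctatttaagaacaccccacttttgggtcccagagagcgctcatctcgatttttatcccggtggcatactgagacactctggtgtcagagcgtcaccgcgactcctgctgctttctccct

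Tgfb3, chr6:111456947-111457196, minus strand: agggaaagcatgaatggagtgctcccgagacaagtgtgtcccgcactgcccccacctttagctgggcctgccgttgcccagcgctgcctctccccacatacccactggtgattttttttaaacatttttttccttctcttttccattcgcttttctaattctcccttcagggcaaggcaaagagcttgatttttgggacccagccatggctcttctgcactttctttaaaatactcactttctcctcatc

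Tgfbr1, chr5:66449148-66449397, plus strand: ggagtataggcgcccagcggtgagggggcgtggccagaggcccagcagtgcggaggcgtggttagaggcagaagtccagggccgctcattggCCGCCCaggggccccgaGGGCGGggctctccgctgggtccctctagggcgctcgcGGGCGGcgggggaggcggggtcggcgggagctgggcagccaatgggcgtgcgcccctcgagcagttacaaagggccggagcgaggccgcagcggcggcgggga

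Tgfbr2, chr8:124761470-124761719, minus strand: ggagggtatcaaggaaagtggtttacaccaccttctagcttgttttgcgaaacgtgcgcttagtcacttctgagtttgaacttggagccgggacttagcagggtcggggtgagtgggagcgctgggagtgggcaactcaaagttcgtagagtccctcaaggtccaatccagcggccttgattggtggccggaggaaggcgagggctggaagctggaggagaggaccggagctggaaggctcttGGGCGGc

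The GC box was found 3 times before Tgfbr1, at 158, 141 and 103 bases before its start, and once before Tgfbr2, at 7 bases. Smad7 had 2 matches and Smad3 had 1, while the 3 ligands had 0. Of 33469 promoter windows of this length, 30.5% held the box. Another 6 motifs were searched on both strands and had no match in any member window: the Smad box GTCTAGAC (in 0.173% of windows), the CAGA box CAGACA (17.2%), the AP-1 site TGANTCA (6.34%), the cyclic AMP element TGACGTCA (1.59%), the TATA box TATAAA (12.9%) and the T-box element AGGTGTGA (0.959%). Windows ranged from 48.8% G and C for Tgfb3 to 78% for Smad7, against a median of 51.2%. A match is a run of letters and not a measured binding site.

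Cells of each library were clustered without the 7 genes and the virus genes, and the clusters were joined into 2 compartments. The files give genes by identifier only and the reference table did not pair these identifiers with names, so myocyte, stromal, endothelial and leukocyte markers could not be read and the compartments are not named as cell types. Compartment 1 was the one with more virus RNA. With GFP at day 3, EGFP was at 96.7 CPM in compartment 1 and 7.07 CPM in compartment 2, and in the TBX18 library at day 3 human TBX18 RNA was at 23.7 and 1.25 CPM. Compartment 1 held 58.7% and 52.2% of cells with GFP and TBX18 at day 3, then 33.2%, 16.1% and 34.2% with GFP, TBX18 and TBX18 with A83-01 at day 14. Within compartment 2, 1 cluster per library stood apart from the other clusters and is called the small branch (266, 153, 183, 75 and 48 cells in that order, the last under the minimum of 50 set for a set of cells), a set defined after the data were seen. Kept cells per library ranged from 6051 to 7896, median UMIs per barcode from 15610 to 28566, and library pairs shared 7 to 20 barcodes.

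Tgfb1 RNA was found mainly in compartment 2 and was highest per UMI in the small branch. In compartment 1, Tgfb1 was at 2.91, 5.25, 13.2, 11.1 and 4.40 CPM in the order GFP day 3, TBX18 day 3, GFP day 14, TBX18 day 14 and TBX18 with A83-01. In compartment 2 it was at 48.3, 51.0, 115, 58.3 and 43.2 CPM in the same order. The 5 values of compartment 2 all lay above those of compartment 1, by 16.6-fold (95% interval 14.7 to 18.7) with GFP at day 3 and by 5.23-fold (4.59 to 5.99) with TBX18 at day 14. Such differences were common: 64.6%, 62.2%, 59.5%, 54.9% and 66.4% of genes were past 1.5-fold between the compartments in the same order of libraries. Compartment 2 held from 90.2% to 96.4% of a library's Tgfb1 UMIs, while it held 43.7% to 83.6% of all UMIs. In the small branch Tgfb1 reached 170, 150, 246, 285 and 214 CPM. With GFP at day 3 the branch held 2.76% of all UMIs and 20.6% of the Tgfb1 UMIs. Thinned to 5000 UMIs per cell, 57.6% of its 264 cells then had a Tgfb1 UMI, against 20.96% of compartment 2 and 1.30% of compartment 1, at median depths of 17624, 23736 and 22604 UMIs. The low share in compartment 1 can include free RNA in droplets, whose part was not tested.

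Tgfb3 followed another order, with compartment 2 highest and the small branch lowest in every library. It was at 20.1, 23.4, 82.0, 99.1 and 80.1 CPM in compartment 2 and at 2.14, 9.99, 15.2, 27.7 and 28.7 CPM in compartment 1, in the same order of libraries. In the small branch Tgfb3 had 2, 14, 2, 10 and 3 UMIs, or 0.403 to 9.30 CPM. The branch was therefore rich in Tgfb1 and poor in Tgfb3 in all 5 libraries. The ratio of compartment 2 to compartment 1 was 9.40-fold (8.15 to 10.9) with GFP at day 3 and 2.34-fold (2.16 to 2.53) with TBX18 at day 3.

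Tgfb2 was close to the limit of detection. Whole libraries held 36 and 35 Tgfb2 UMIs at day 3 with GFP and TBX18, and 6, 6 and 6 at day 14. Compartment 1 held 32 of the 36 UMIs with GFP and 34 of the 35 with TBX18, which gave 0.316 CPM (0.216 to 0.446) and 0.377 CPM (0.261 to 0.527). The small branch had 0 UMIs in all 5 libraries, where 3 counts correspond to 0.605 to 4.58 CPM. Tgfb2 was thus the only ligand with a higher level in compartment 1 than in compartment 2 at day 3. At day 14 the UMIs were too few to compare.

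Both receptors were higher in compartment 2 than in compartment 1 in every library. Tgfbr1 was at 2.91, 2.46, 6.25, 6.46 and 4.01 CPM in compartment 2 and at 0.869, 0.599, 2.88, 3.01 and 1.22 CPM in compartment 1. Tgfbr2 was at 21.8, 10.8, 28.6, 38.1 and 23.5 CPM in compartment 2 and at 5.68, 1.56, 7.52, 8.08 and 4.50 CPM in compartment 1. The Tgfbr2 ratio between compartments ranged from 3.80-fold (3.32 to 4.36) with GFP at day 14 to 6.89-fold (5.77 to 8.29) with TBX18 at day 3. In the small branch Tgfbr1 reached 13.5, 13.2, 46.4, 30.7 and 18.3 CPM, which was 4.70-fold to 8.77-fold the level in the rest of compartment 2. Tgfbr2 was at 36.5, 26.5, 52.5 and 61.4 CPM there in the first 4 libraries, above the rest of compartment 2, and at 21.4 CPM (11.7 to 35.9) with A83-01, where the interval held the 23.5 CPM of the rest. The branch thus carried the most Tgfb1 and Tgfbr1 RNA per UMI among the 3 sets of cells.

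Cells with a UMI of both receptors were rare at equal depth. Thinned to 5000 UMIs, they made up 0.193% of compartment 2 with GFP at day 3 (6 of 3111 cells) and 0.569% at day 14 (23 of 4042). The products of the separate shares were 0.146% and 0.390%, within the intervals of 0.0708% to 0.419% and 0.361% to 0.853%. In the small branch 7.14% of cells (13 of 182) had both with GFP at day 14, beside a product of 4.12% and an interval of 3.86% to 11.9%. At other depths the interval of compartment 2 lay above the product in some sets. With GFP at day 3 and 10000 UMIs the share was 0.786% (0.504% to 1.17%) and the product 0.452%. At 3000 UMIs the share was 0.371% (0.208% to 0.611%) against 0.169% with GFP at day 14, and 0.392% (0.256% to 0.574%) against 0.218% with TBX18 at day 14. The comparison of share and product therefore depended on the depth chosen.

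Smad7 in every library, and Smad3 at day 3, were within 1.5-fold between the compartments, while Smad3 at day 14 was higher in compartment 2. Smad3 was at 8.99, 10.2, 14.4, 14.1 and 23.0 CPM in compartment 1 and at 9.35, 8.85, 29.0, 22.7 and 60.9 CPM in compartment 2. At day 3 the Smad3 ratio of compartment 2 to 1 was 1.04-fold (0.942 to 1.15) with GFP and 0.869-fold (0.788 to 0.957) with TBX18, and at day 14 it was 2.01-fold, 1.61-fold and 2.65-fold. Smad7 was at 21.7, 56.2, 47.0, 99.74 and 42.6 CPM in compartment 1 and at 24.2, 54.0, 68.0, 88.2 and 50.7 CPM in compartment 2. The small branch had from 4.43 to 19.3 CPM of Smad7, below both compartments in all 5 libraries.

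**Figure D1:**
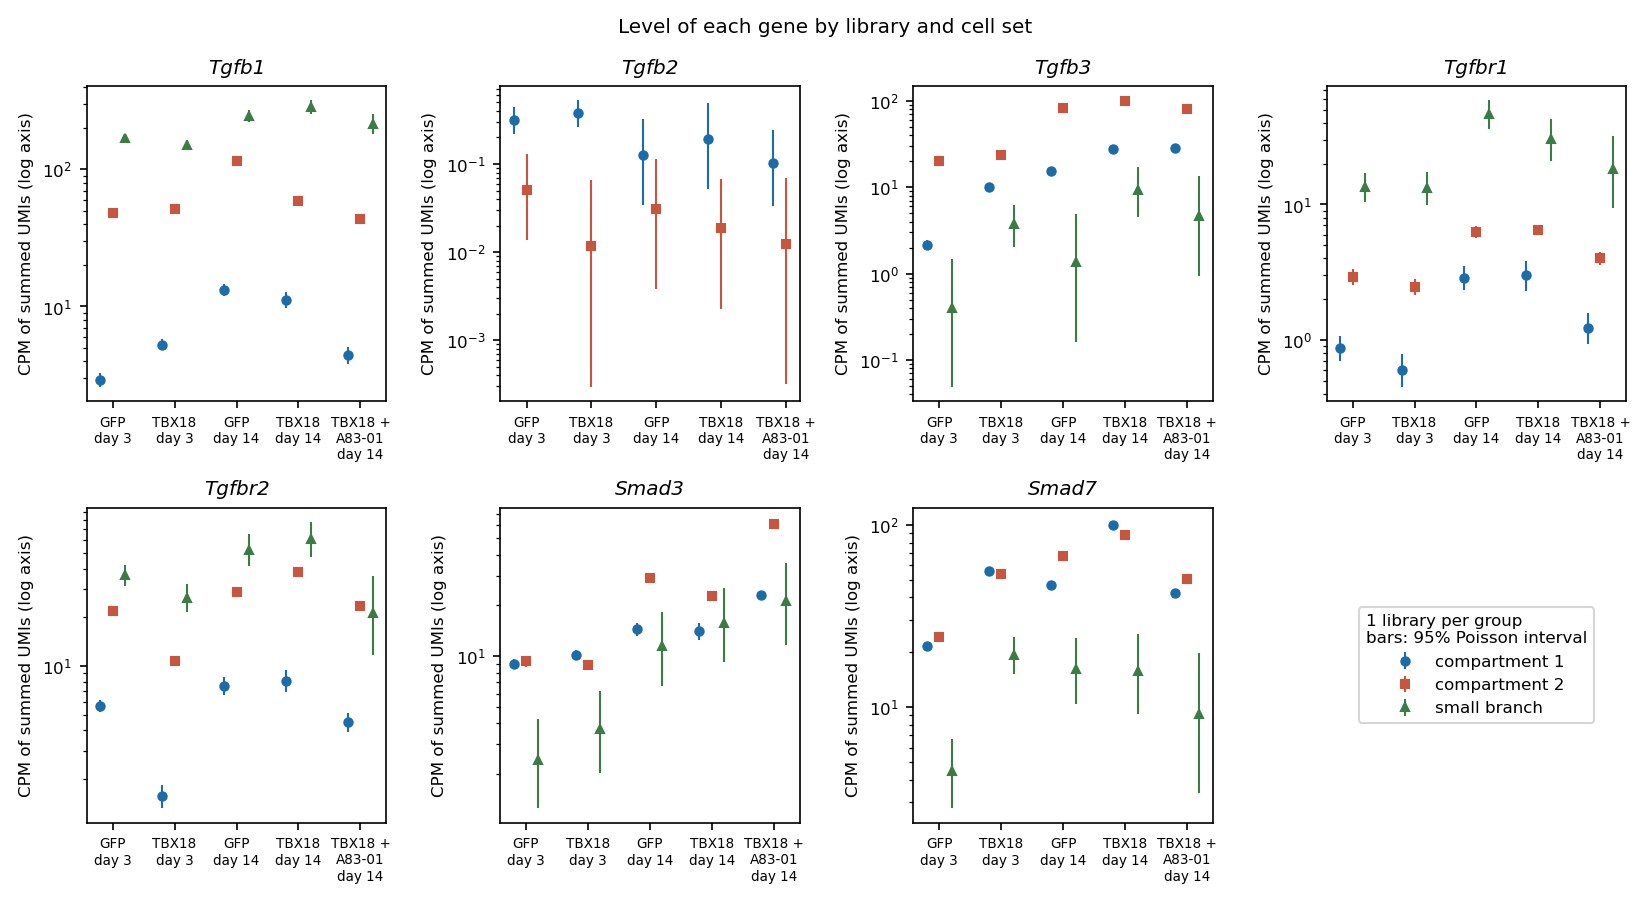
Level of the 7 genes in each library, with the library on the x axis and CPM of summed UMIs on a log y axis; points are single libraries and bars 95% Poisson intervals. Tgfb1 is highest in the small branch (150 to 285 CPM), Tgfb3 is highest in compartment 2, and Smad7 lies close together in both compartments; sets with 0 UMIs are not drawn.

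Ligand RNA was uneven within compartments. In compartment 2, 1 cluster per library had Tgfb3 at 86.8, 89.9, 213, 229 and 358 CPM, while the median of the other clusters, here and below without the small branch, was 15.98, 20.2, 71.8, 83.5 and 41.2 CPM. The highest of the others was at 64.3, 72.7, 80.3, 121 and 97.0 CPM, so at day 3 a second cluster was close to the first. The clusters of highest Tgfb3 held 1.88%, 2.44%, 6.26%, 10.1% and 5.65% of cells. They were picked for their Tgfb3, so this height is a description. By the profile over 4743 genes, the best matching cluster of another library was again the one with the highest Tgfb3 in 14 of 20 ordered pairs of libraries. Starting from GFP at day 3, this was so only for TBX18 at day 14. Tgfb1 in the clusters of highest Tgfb3 was at 58.2, 39.7, 65.6, 47.2 and 33.9 CPM, below the median of the other clusters in all libraries but GFP at day 3. With A83-01 this cluster also differed in its Smads, with Smad7 at 85.2 CPM against a range of 31.0 to 74.0 CPM in the other 7 clusters and Smad3 at 32.2 CPM against 38.5 to 80.6 CPM. The small branch was lower in both with A83-01, with Smad7 at 9.16 CPM and Smad3 at 21.4 CPM. Counting intervals for the cluster of highest Tgfb3 with A83-01 were 78.5 to 92.2 CPM for Smad7 and 28.2 to 36.7 CPM for Smad3. Both lay outside the ranges of the other 7 clusters. In the other libraries no such difference exceeded counting error. Smad3 was slightly under the lowest other cluster with GFP at day 3 (7.95 against 8.12 CPM) and day 14 (19.2 against 19.5 CPM). With TBX18 at day 14 it was at 13.9 against 15.2 CPM, but with TBX18 at day 3 it lay within their range. Smad7 exceeded the others with TBX18 at day 3 (67.7 against 61.3 CPM) and lay within their range elsewhere. Where the cluster lay past the others in these libraries, its interval held the value of the nearest other cluster. Whether the differences are particular to A83-01 was not tested.

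In compartment 1, much of the day 14 ligand RNA came from a small part of the cells. The cluster with the highest Tgfb3 held 12.5%, 18.7% and 14.0% of the compartment's cells with GFP, TBX18 and TBX18 with A83-01 at day 14, and 73.6%, 56.1% and 80.9% of its Tgfb3 UMIs. Tgfb3 there was at 63.8, 90.3 and 153 CPM, and at 4.87, 14.7 and 6.45 CPM in the rest of compartment 1. The cluster also held 68.5%, 33.5% and 52.1% of the compartment's Tgfb1 UMIs. On a scale where 0 is the mean profile of the rest of compartment 1 and 1 that of compartment 2, it lay at 0.567, 0.370 and 0.480, between the highest other cluster of compartment 1 (0.126, 0.0479 and 0.0673) and the lowest of compartment 2 (0.963, 0.951 and 0.914). Its median depth was 23618 UMIs per cell against 14537 in the rest with GFP, 14565 against 16237 with TBX18 and 22559 against 19257 with A83-01. Whether these cells are a cell state, mixed droplets or misplaced cells of compartment 2 was not tested. At day 3 the clusters picked in the same way held 45 and 62 cells and 10.1% and 6.66% of the Tgfb3 UMIs of compartment 1. Whether they match the day 14 clusters was not tested. Ratios in compartment 1 are therefore also given without each library's cluster of highest Tgfb3, a choice made after the data were seen. Because the cluster was picked by its Tgfb3, Tgfb3 ratios without it depend on that choice, which the counting intervals do not cover.

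**Figure D2:**
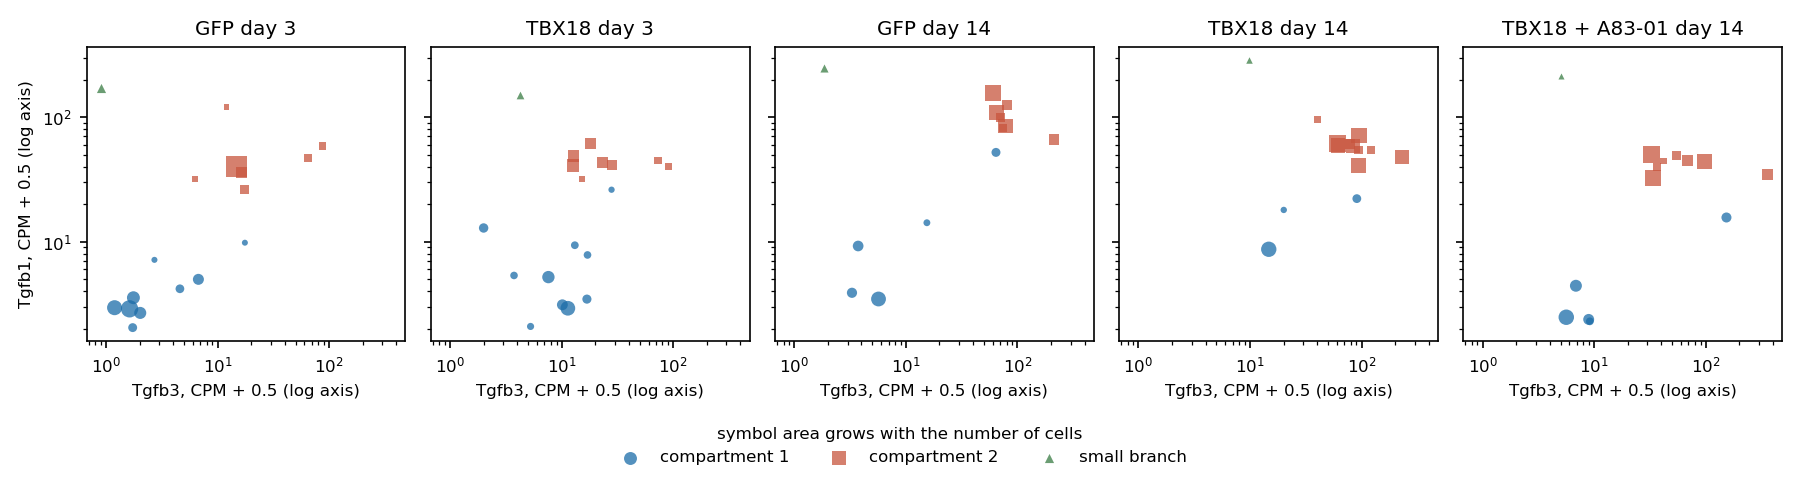
Tgfb3 (x axis) against Tgfb1 (y axis) per cluster of at least 20 cells, both as CPM plus 0.5 on log axes, with 1 panel per library and shallow day 3 clusters left out; symbol area grows with the number of cells. The small branch sits at high Tgfb1 and low Tgfb3. At day 14, 1 cluster of compartment 2 sits far to the right (213 to 358 CPM). At day 3 the highest cluster of compartment 2 (86.8 CPM with GFP, 89.9 CPM with TBX18) has another near it (64.3 and 72.7 CPM). Also at day 14, 1 cluster of compartment 1 lies near compartment 2.

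TBX18 was first compared with GFP at day 3, where Smad7 was higher and Tgfbr2 lower in both compartments, and Tgfb3 was higher in compartment 1. Smad7 was 2.59-fold higher (2.46 to 2.72) in compartment 1 and 2.23-fold higher (2.11 to 2.35) in compartment 2. Tgfb3 was 4.67-fold higher (4.02 to 5.43) in compartment 1, from 2.14 to 9.99 CPM, and 1.16-fold higher (1.09 to 1.24) in compartment 2. Tgfbr2 was 3.63-fold lower (3.01 to 4.39) in compartment 1, where its mean stayed under 5 CPM so that it was not counted, and 2.02-fold lower (1.87 to 2.20) in compartment 2. Of the 3 members above 5 CPM in compartment 1, 2 were past the fold, and 24.9% of 7832 genes were. In compartment 2 it was 2 of 5 members, Smad7 and Tgfbr2, and 8.46% of 8111 genes. Tgfb1 in compartment 1 was 1.80-fold higher (1.55 to 2.09), also with a mean under 5 CPM. Smad3 differed by less than 1.5-fold in both compartments. Without its cluster of highest Tgfb3, compartment 1 gave log2 ratios of 2.29 for Tgfb3 and 1.36 for Smad7, close to 2.22 and 1.37 with it.

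At day 14 the TBX18 library had more Smad7 in compartment 1 and less Tgfb1 in compartment 2 than the GFP library, and Tgfb3 in compartment 1 was past the fold with doublet candidates left out but not with them kept. Smad7 was 2.12-fold higher (1.99 to 2.27) in compartment 1 and 1.30-fold higher (1.25 to 1.35) in compartment 2. Tgfb3 was 1.82-fold higher (1.61 to 2.06) in compartment 1 and 1.21-fold higher (1.17 to 1.25) in compartment 2. With doublet candidates kept, the log2 ratio of Tgfb3 in compartment 1 was 0.47, under the fold, in place of 0.87. Tgfb1 was 1.98-fold lower (1.91 to 2.04) in compartment 2, at 58.3 against 115 CPM, a ratio below that of all but 0.671% of the genes tested. The members past the fold were 2 of 5 in compartment 1, beside 15.9% of 8808 genes, and 1 of 6 in compartment 2, beside 10.4% of 9092 genes. Receptors and Smad3 were within 1.5-fold in both compartments, with log2 ratios between -0.35 and 0.42. Tgfb1 in compartment 1 depended on its cluster of highest Tgfb3: the log2 ratio was -0.25 (-0.48 to -0.01) with the cluster and 0.82 (0.48 to 1.17) without it. Tgfb3 went from 0.87 to 1.59 (1.28 to 1.91) on leaving it out, and Smad7 from 1.09 to 1.29.

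A83-01 was compared through the library with TBX18 and A83-01 over the TBX18 library at day 14, which also served the comparison above, so that the values of these comparisons share a library and are not independent. With A83-01, Smad3 was higher and Smad7 and both receptors were lower in each compartment. Smad3 was 2.69-fold higher (2.56 to 2.82) in compartment 2, at 60.9 against 22.7 CPM, and 1.63-fold higher (1.43 to 1.86) in compartment 1. Smad7, a target of the pathway itself, was 2.34-fold lower (2.20 to 2.49) in compartment 1 and 1.74-fold lower (1.68 to 1.81) in compartment 2. Tgfbr1 was 1.61-fold lower (1.41 to 1.84) and Tgfbr2 1.63-fold lower (1.54 to 1.72) in compartment 2. In compartment 1 Tgfbr2 was 1.80-fold lower (1.46 to 2.21), and Tgfbr1 2.47-fold lower (1.71 to 3.59) with a mean under 5 CPM. Tgfb1 was 2.53-fold lower (2.10 to 3.07) in compartment 1 and 1.35-fold lower (1.30 to 1.41) in compartment 2.

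The members past the fold were 4 of 5 in compartment 1, beside 37.7% of 8540 genes, and 4 of 6 in compartment 2, beside 24.4% of 9184 genes. In compartment 1 nearly all called genes were lower with A83-01: 148 were higher and 3073 lower, and after centring on the median gene 722 were higher and 1066 lower. After that centring, the log2 ratios in compartment 1 were 1.14 for Smad3, -0.79 for Smad7, -0.90 for Tgfb1 and -0.40 for Tgfbr2, the last no longer past the fold. In compartment 2 they were 1.53 for Smad3, -0.70 for Smad7, -0.58 for Tgfbr1 and -0.60 for Tgfbr2, so that Tgfbr1 was just under the fold and Tgfbr2 just past it. With TMM scaling they were -0.57 and -0.59, and neither was past the fold once the pseudocount of 0.5 CPM used for calls was added to both levels. Tgfb3 in compartment 1 was at 28.7 against 27.7 CPM, a log2 ratio of 0.05 (-0.09 to 0.19), but without the cluster of highest Tgfb3 it was -1.19 (-1.44 to -0.93). After centring these were 0.49 and -0.71. That cluster held 80.9% of the compartment's Tgfb3 UMIs with A83-01 and 56.1% without it, so the second ratio depends on what was left out. Smad3 in compartment 1 was 0.70 (0.52 to 0.89) with that cluster and 0.44 (0.22 to 0.66), under the fold, without it. After centring, Smad3 was past the fold both with the cluster (1.14) and without it (0.92). Smad7 was -1.28 without the cluster and -1.23 with it.

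Day 14 was compared with day 3 within each virus, where the tables differ also in unit, gene list and filter on cells. In the GFP libraries all 4 members called were higher at day 14 in each compartment: Tgfb1, Tgfb3, Smad3 and Smad7. Tgfb3 was 7.10-fold higher (6.04 to 8.37) in compartment 1 and 4.07-fold higher (3.85 to 4.31) in compartment 2. Tgfb1 was 4.54-fold higher (3.91 to 5.29) and 2.39-fold higher (2.29 to 2.48), Smad3 1.60-fold (1.43 to 1.80) and 3.10-fold (2.85 to 3.38), and Smad7 2.16-fold (2.02 to 2.31) and 2.81-fold (2.66 to 2.96). Tgfbr2 was within 1.5-fold, at log2 ratios of 0.41 and 0.39. Tgfbr1 was 3.32-fold higher (2.451 to 4.498) in compartment 1 and 2.146-fold higher (1.82 to 2.535) in compartment 2. Its means were under 5 CPM, so it was not counted. The called members were 4 of 5 in each compartment, beside 41.9% of 8278 genes in compartment 1 and 55.0% of 8745 genes in compartment 2, so calls were common among all genes. Without the cluster of highest Tgfb3 the log2 ratios in compartment 1 were lower, at 1.32 in place of 2.83 for Tgfb3 and 0.84 in place of 2.18 for Tgfb1. Smad3 then fell short of the fold, at 0.34 in place of 0.68. It was also under the fold after centring on the median gene (0.49) and with TMM scaling (0.31).

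In the TBX18 libraries Tgfbr2 was among the members that were higher at day 14. It was 3.54-fold higher (3.29 to 3.81) in compartment 2, from 10.8 to 38.1 CPM, and 5.17-fold higher (4.11 to 6.51) in compartment 1 with a mean under 5 CPM. Tgfbr1 was 5.03-fold higher (3.443 to 7.377) in compartment 1 and 2.62-fold higher (2.243 to 3.075) in compartment 2, with both means under 5 CPM. Smad3 was 2.56-fold higher (2.36 to 2.784) in compartment 2 and 1.385-fold higher (1.21 to 1.58), under the fold, in compartment 1. Tgfb3 was 4.24-fold higher (4.04 to 4.45) in compartment 2 and 2.77-fold higher (2.49 to 3.08) in compartment 1. Tgfb1 was 2.12-fold higher (1.81 to 2.49) in compartment 1 and 1.14-fold higher (1.10 to 1.19) in compartment 2, where centring on the median gene turned the log2 ratio from 0.19 to -0.30. The members past the fold were 3 of 4 in compartment 1, beside 46.5% of 8593 genes, and 4 of 5 in compartment 2, beside 59.8% of 8850 genes. After centring, the log2 ratios of Smad7 were 0.38 and 0.21 in compartments 1 and 2, under the fold, in place of 0.83 and 0.71. Tgfb3 in compartment 1 was 0.62 without its cluster of highest Tgfb3, in place of 1.47. After centring it was 1.03 with that cluster and 0.20, under the fold, without it.

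Centring moved the median gene by log2 values of -0.06 and -0.10 (compartments 1 and 2) for TBX18 over GFP at day 3, 0.21 and 0.15 at day 14, -0.44 and -0.10 for A83-01, 0.19 and 0.20 for day 14 over day 3 with GFP, and 0.45 and 0.49 with TBX18. The share of called genes that were higher moved with it. For TBX18 over GFP it went from 48.9% to 56.3% and from 33.1% to 46.5% at day 3, and from 84.5% to 57.8% and from 76.9% to 57.4% at day 14. For A83-01 it went from 4.59% to 40.4% and from 33.5% to 46.1%. For day 14 over day 3 it went from 66.0% to 49.4% and from 63.3% to 49.1% with GFP, and from 86.9% to 51.2% and from 76.6% to 47.6% with TBX18. Relative to the median gene, Smad7 was 1.43 and 1.25 higher on the log2 scale with TBX18 at day 3, and 0.87 and 0.23 higher at day 14. Relative to it, Tgfb1 in compartment 2 was -1.13 at day 14 with TBX18 over GFP.

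**Figure D3:**
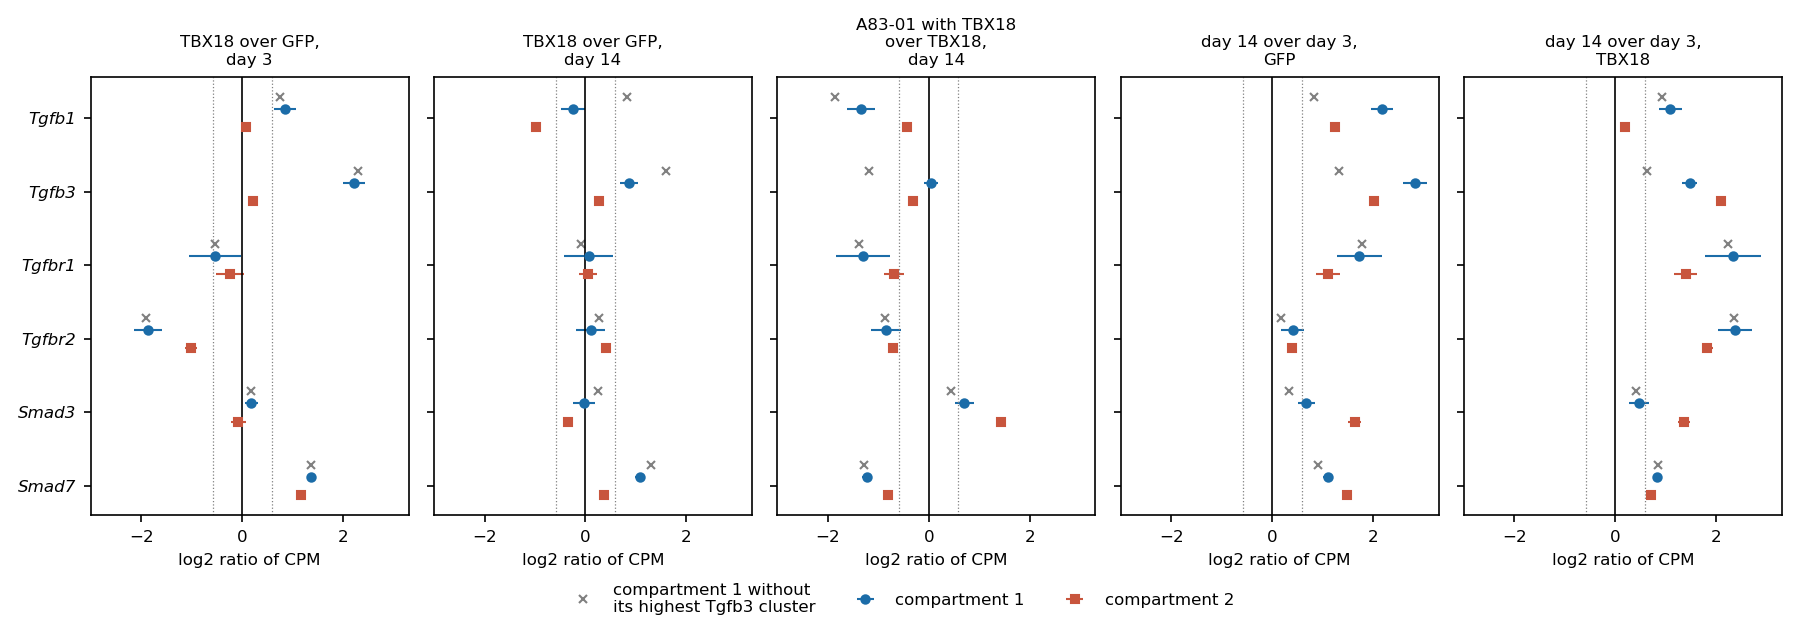
Log2 ratio of CPM (x axis) for 6 genes (y axis; Tgfb2 had too few UMIs) in the 5 comparisons, with 1 library on each side; bars are exact 95% intervals for counting error, dotted lines mark 1.5-fold, and crosses give compartment 1 without its cluster of highest Tgfb3. Smad7 is to the right of 0 with TBX18 and to the left with A83-01 in each compartment, Smad3 is to the right with A83-01, and the crosses depart most for Tgfb1 and Tgfb3 at day 14.

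Cells of compartment 1 at day 3 were then grouped by their own count of transgene UMIs (human TBX18 plus ZsGFP, the fluorescent protein read in the TBX18 libraries, or EGFP in the GFP library). In the TBX18 library, Smad7 was at 64.6 CPM (62.3 to 66.9) in 1782 cells with 0 transgene UMIs, 59.8 CPM (56.8 to 62.9) in 839 cells with 1 to 2, 36.5 CPM (33.1 to 40.1) in 376 cells with 3 to 9 and 8.54 CPM (6.25 to 11.4) in 189 cells with 10 or more. The intervals of the last 2 groups did not overlap each other or the first 2. In the GFP library the same groups had 22.4, 22.3, 19.5 and 22.6 CPM. Smad7 was thus higher in the TBX18 library as a whole, while its cells richest in transgene RNA had less Smad7 than the GFP library. The TBX18 cells with 10 or more UMIs had 7.57-fold less Smad7 (5.66 to 10.35) than those with 0, at median depths of 29979 and 28226 UMIs. Cells with any transgene UMI were also compared with cells without one, matched on depth. The log2 ratio of Smad7 was then -0.43 (-0.52 to -0.34) with TBX18. With GFP it was -0.21 (-0.36 to -0.06), so the GFP library also had a difference, though a smaller one. This depended on the matching: without it the GFP value was -0.0774 (-0.201 to 0.0467), an interval that held 0. The TBX18 value without matching was -0.462 (-0.544 to -0.380).

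Other members also differed with the transgene count in the TBX18 library at day 3. Between cells with 10 or more and 0 transgene UMIs, Tgfb3 was 2.05-fold lower (1.39 to 3.14) and Smad3 2.06-fold lower (1.40 to 3.16), at 5.01 CPM each. Tgfb1 was higher, at 10.2 against 4.91 CPM, a log2 ratio of 1.06 (0.61 to 1.49). Tgfbr2 had 2 UMIs and Tgfbr1 0 UMIs in the 189 cells. Between these groups 48.3% of 7879 genes were past 1.5-fold in the TBX18 library, against 4.49% of 7751 genes between the same groups of the GFP library, so the members were not alone in differing. The 3 clusters of the compartment with most transgene RNA held 289, 157 and 144 cells. Their own transgene RNA was at 332, 179 and 935 CPM and their Smad7 at 12.2, 25.4 and 5.39 CPM. The last of these clusters had a median of 12259 UMIs per cell against 29595 in the compartment, and the part of depth in its level was not tested.

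At day 14 few cells of the TBX18 libraries had many transgene UMIs, which left the same grouping less precise there. With TBX18 at day 14, Smad7 was at 99.5 CPM (94.9 to 104) with 0, 107 CPM (95.6 to 119) with 1 to 2 and 72.2 CPM (53.8 to 94.9) with 3 to 9 transgene UMIs, the last in 35 cells. The group with 3 to 9 was thus lower than the group with 0, with intervals that met at their ends. With A83-01 Smad7 was at 42.3, 44.9 and 42.1 CPM in 2119, 271 and 58 cells, values that were close together. Too few cells had 10 or more transgene UMIs at day 14 with TBX18 to give a value. Matched on depth, Tgfb3 was lower in cells with any transgene UMI than in cells without one. The log2 ratio was -1.33 (-1.803 to -0.871) with TBX18, -0.695 (-0.998 to -0.397) with GFP and -0.442 (-0.728 to -0.157) with A83-01. Without the cluster of highest Tgfb3 it was -1.31 (-2.087 to -0.581), -0.0842 (-0.665 to 0.496) and -0.676 (-1.298 to -0.0683), in that order. With GFP that interval held 0. For Smad7 the matched intervals held 0 in each day 14 library. A cell with 0 transgene UMIs cannot be taken as free of virus, since a low count can miss the RNA.

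**Figure D4:**
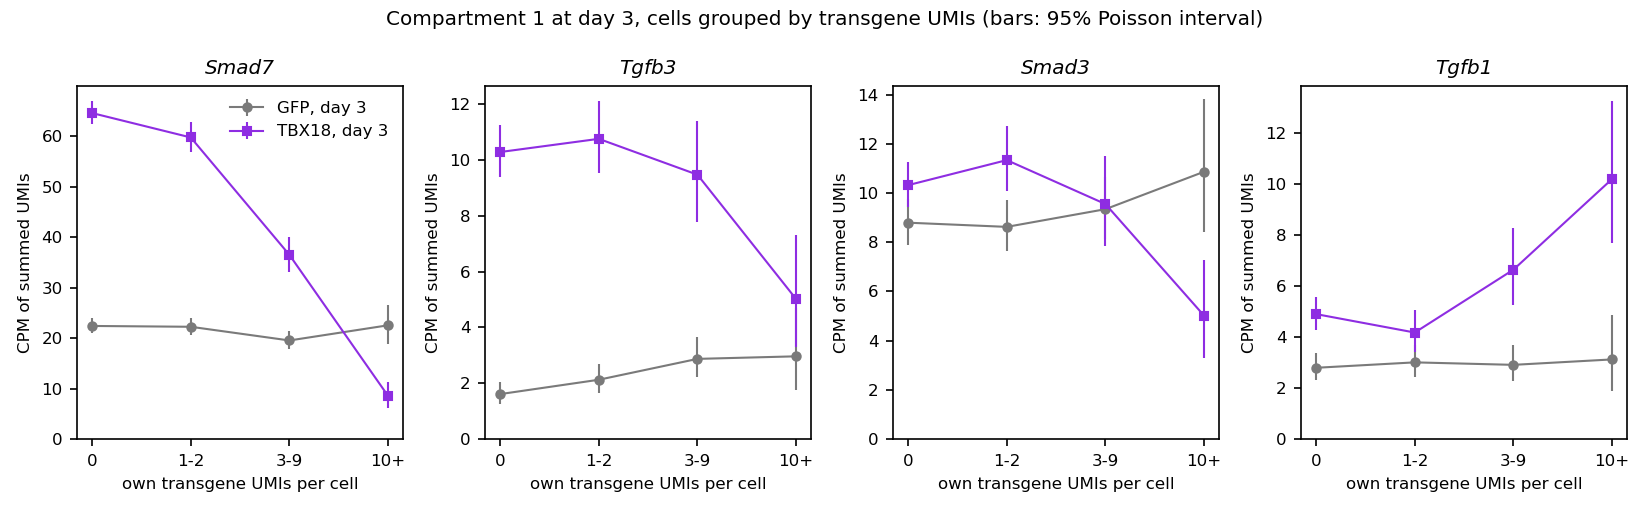
CPM of summed UMIs (y axis, linear from 0) of 4 genes in compartment 1 at day 3 by the number of own transgene UMIs per cell (x axis), for GFP and TBX18; bars are 95% Poisson intervals. Smad7 goes from 64.6 to 8.54 CPM in the TBX18 library and stays between 19.5 and 22.6 CPM in the GFP library, while Tgfb1 is higher in the TBX18 cells with most transgene.

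Over the 10 profiles of 5 libraries and 2 compartments, the members most alike in log2(CPM + 1) were the 2 receptors, with a Pearson r of 0.92. Tgfb1 was next, with r of 0.87 to each receptor, while Tgfb2 had negative r with every other member (-0.22 to -0.83). Such r were common. Of genes that averaged 20 CPM or more, 83.6% had a lower r with Tgfb1 than Tgfbr1 had, and 83.9% a lower one than Tgfbr2. For Tgfbr1, 93.8% of such genes had a lower r than Tgfbr2 had. The profiles share libraries and depth, and the members also differ between compartments, so r is a description only. Within compartments 1 and 2 the r of the receptors over 5 profiles was 0.83 and 0.88, which was not the highest among the members in either. That of Tgfb1 was 0.88 and 0.64 with Tgfbr1, and lower with Tgfbr2, at 0.48 and 0.35. The highest r in compartment 1 was that of Tgfb1 with Tgfbr1. In compartment 2 it was that of Tgfb3 with Tgfbr1, at 0.90, a pair with 0.55 in compartment 1. In compartment 2, Tgfb2 had r of 0.20 with Tgfb1 and 0.21 with Tgfbr2. These rest on 4, 1, 2, 2 and 1 Tgfb2 UMIs in the 5 libraries, too few to read a sign. The pooled r of Tgfb2 rests in part on the same counts and includes the difference between compartments. Smad3 and Smad7 had an r of 0.36. Over 4966 other genes that averaged 20 CPM or more, the closest to Tgfb1 was ENSRNOG00000034180 (r 0.99) and the closest to Tgfb3 was ENSRNOG00000038933 (r 0.98). Smad3 and Smad7 had their closest genes at r 0.92 and 0.95.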

How the data were processed

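Single-cell 3' RNA libraries of 5 cultures were analysed, 1 per group. Per the submitters' processing notes, STAR 2.7.8a, Partek and the rat build Rnor_6.0 were used, and filters are not given in the sources used here. The authors deposited the day 3 tables as estimated counts of UMIs, whole within 0.05 for 99.72% and 99.74% of values, and the day 14 tables as log2 values of CPM plus 1. UMIs of the day 14 tables were recovered by taking a cell's most common nonzero value as 1 UMI. On 500 simulated cells this returned 100% of counts. All values of the 7 genes were whole, so sums were rounded only over all genes.

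Barcodes with at least 500 genes were kept and the 6% with the highest Scrublet scores in each library left out as doublet candidates. Each library was clustered on its own (scanpy 1.11.5, leidenalg 0.10.2, 2000 variable genes, 30 principal components, 20 neighbours, resolution 1). Cluster profiles were joined by average linkage into 2 compartments. Day 14 barcodes ranged from 1993 to 5592 genes and day 3 barcodes from 28 to 7758.

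Differences were ratios of summed UMIs, with no test since each group has 1 library. Shares of called genes used a pseudocount of 0.5 CPM. Alternatives were scaling (median of ratios, and TMM in edgeR 4.0.16), filters, pseudocount, thinning, doublets and clustering resolution. The genes and lists were chosen with earlier results of these data known. Lists of other pathway genes and of cell type markers were not used here, because the identifiers could not be paired with names. Genes are named always as the 7 members, and other genes by the highest r with a member, of which 2 are printed.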

Additional observations from a re-analysis of the deposited data

Results flagged for a closer look

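Barcodes with fewer than 500 genes, which took no part in the comparisons, held some Smad7 at day 3: 4 UMIs in 731 barcodes of the GFP library and 5 UMIs in 292 barcodes of the TBX18 library. Both exceed 3 counts, the upper limit for an observed 0, and they correspond to 0.767 and 1.69 CPM. The other 6 genes had 0 to 2 UMIs each in these barcodes.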

How the results depend on the processing

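No paired analysis was possible because each group has 1 library. Of 593 log2 ratios of single members under the alternatives, 473 stayed within the counting interval, 115 moved outside it and 5 changed sign. The sign changed for Tgfb1 with TBX18 over GFP at day 14 in compartment 1 (0.23 at resolution 0.5, and 0.825 without the cluster of highest Tgfb3), for Smad3 at day 14 over day 3 with TBX18 in compartment 1 (-0.076 with TMM), and for Tgfb1 there in compartment 2 (-0.299 with median of ratios and -0.32 with TMM). The cause was not tested. Of 33 contrasts of cells with and without a transgene UMI, 2 moved outside the counting interval when depth was not matched. Counts of genes past 1.5-fold are given for compartments 1 and 2. With a minimum of 20 CPM, which tests fewer genes, they were 977 and 336 for TBX18 over GFP at day 3, 676 and 502 at day 14, 1544 and 1248 for A83-01, 1825 and 2659 for day 14 over day 3 with GFP, and 2044 and 2885 with TBX18. With no filter they were 3739 and 1288, 2552 and 1712, 5474 and 3655, 6142 and 7374, and 6767 and 8078. A pseudocount of 5 CPM gave 418 at day 3 in compartment 2 and 877 at day 14 in compartment 1. For A83-01 in compartment 1, median of ratios gave 1788 and TMM 1831. Members past the fold numbered 1 with a minimum of 20 CPM in both compartments for TBX18 over GFP at day 3, and in compartment 1 for A83-01 and for day 14 over day 3 with either virus. With no filter they numbered 4 for TBX18 over GFP at day 3 and 5 for day 14 over day 3 with TBX18, both in compartment 1. They numbered 1 with doublet candidates kept for TBX18 over GFP at day 14 in compartment 1, where Tgfb3 had a log2 ratio of 0.469. They numbered 2 for A83-01 in compartment 1 with a pseudocount of 5 CPM and 2 in compartment 2 with TMM, 1 for day 14 over day 3 with TBX18 in compartment 1 with median of ratios or TMM, and 1 with GFP without the cluster of highest Tgfb3. From 98.1% to 100% of cells kept their compartment under other filters and resolutions. Depth limits Tgfb2 throughout and Tgfbr1 in compartment 1, and the spread between cultures was not measured.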
